A study of Mus musculus with 4 samples.

Results

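A set of 8 genes, grouped here as surface and signalling markers of blood stem cells although some encode enzymes, was followed across 4 single-cell libraries of mouse bone marrow. The 8 genes differed in how well they marked the stem-cell gate. These genes were chosen by name, with earlier results of these data known, as 8 of the 32285 genes in each deposited matrix. They are Tek, Esam, Pdzk1ip1, Fgd5, Ctnnal1, Gcnt2, Tgm2 and Sult1a1. The cells were CD45.2+ marrow cells that lacked lineage markers and carried Sca1 and Kit (Lin-Sca1+Kit+, LSK), a sort that holds blood stem cells and multipotent progenitors. They were collected 10 weeks after transplantation, and antibody tags for CD150, CD48, CD201, CD135, CD117 and CD34 were counted in the same cells as the RNA. There was 1 library each from control, Mll3 deleted, Mll4 deleted and Mll3/4 deleted LSK. Mll3 and Mll4 are the histone methyltransferases of the genes Kmt2c and Kmt2d. How the deletion was made, how many donors were pooled, the strain and age of donors and hosts, and whether the control carried a deleter transgene are not given in the sources used here.

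Blood stem cells sit at the top of the LSK population and are enriched among cells with high CD150 and low CD48, while progenitors gain CD48, CD34 or CD135. Many genes that mark them are shared with the endothelium, from which blood stem cells arise in the embryo. Tek (also called Tie2) is the receptor tyrosine kinase for angiopoietins, Esam is a cell adhesion molecule of the immunoglobulin superfamily, and Pdzk1ip1 (also called MAP17) is a small membrane protein. Fgd5 encodes an intracellular signalling protein and marks blood stem cells in reporter mice, and Ctnnal1 (alpha-catulin) is a cytoplasmic relative of alpha-catenin. Gcnt2 builds the branched sugar chains of the I blood group antigen, Tgm2 is a transglutaminase that cross-links proteins, and Sult1a1 is a cytosolic sulfotransferase of phenols.

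The 4 libraries differed in depth and make-up. A barcode was used when it had 1000 genes or more and no more than 10% of its UMIs (unique molecular identifiers, counted RNA molecules) from mitochondria, which left 4748 to 7274 cells per library and 50792614 to 120700343 UMIs. Median UMIs per cell were 14454 in the control, and 15381, 21400 and 8920 in the libraries labelled Mll3, Mll4 and Mll3/4. The filter kept 92.4% to 94.7% of the barcodes in 3 libraries and 62.2% in the Mll4-labelled one. Each pair of libraries shared 7 to 14 cell barcodes. The targeted gene Kmt2c was counted at 68.9, 35.3, 61.3 and 42.3 CPM (UMIs of a gene in relation to all UMIs of the library, on the counts-per-million scale) in the same order of libraries, and Kmt2d at 24.6, 21.6, 22.6 and 25.4. Kmt2d was thus not lower in the Mll3/4-labelled library, and counts at the 3′ end of a transcript check a deletion only where they cover the deleted part, so libraries are named by their labels throughout. Kit and Ly6a (Sca1), the sorted markers, had a UMI in 81.3% to 91.1% and 59.1% to 69.2% of cells. Since each genotype is 1 library, differences cannot be set against a spread between replicates; there are no tests or p-values here, and every interval is a 95% interval for counting error alone.

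Some further features of the libraries touch the results. In the Mll3/4-labelled library, 4724 of 4748 cells carried at least 2 UMIs of each of at least 3 B-lineage genes, and the 12 genes of that list summed to 13565 CPM against 63.7 in the control. In the Mll4-labelled library the summed levels of 8 granule genes, 8 macrophage genes and 8 mast cell genes were 7631, 567 and 1623 CPM, against 1089, 15.9 and 22.4 in the control. In the Mll3-labelled library those 3 sums were 1182, 15.3 and 9.57, and in the Mll3/4-labelled library 29.5, 6.75 and 1.85.

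Over all kept cells, 7 of the 8 genes were nearly absent from the Mll3/4-labelled library, and Ctnnal1 was not. Levels are sums over all cells of a library, as CPM, so that fewer cells of a type and less RNA per cell cannot be told apart. A count of genes at least 2-fold away from the control was taken over those with a mean of at least 5 CPM, which 6 of the 8 reached (Tek and Sult1a1 did not). In the Mll3/4-labelled library 5 of these 6 were at least 2-fold lower than in the control, against 13.7% of all 10123 genes, and none was higher (8%). The Mll4-labelled library had 2 of 6 at least 2-fold lower (Fgd5 and Gcnt2; 4.74% of all genes) and none higher (6.44%). The Mll3-labelled library had 1 of 6 at least 2-fold higher (Fgd5; 1.85% of all genes) and none lower (0.958%). Fgd5 reached the minimum only through its level in that library, and it was under 2-fold with TMM or median-of-ratios scaling, so this count says little. Through the same level Fgd5 also entered the counts of the other libraries. Since the 8 genes were chosen with earlier results of these data known, the shares of all genes beside the counts are no test. The median log2 ratio of the 8 genes was -6.03, -0.92 and 0.73 in the Mll3/4-, Mll4- and Mll3-labelled libraries, where the median of all genes was -0.12, -0.11 and 0.10. The first of these is the same with Tek, which had no UMI there, set at its limit.

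Among the surface proteins, Tek (ENSMUSG00000006386, chromosome 4, 94739289 to 94874976 on GRCm38) was counted at 5 CPM in the control, 6.33 in the Mll3-labelled and 2.23 in the Mll4-labelled library. No UMI of Tek was found in the Mll3/4-labelled library, against 597 in the control, which puts it at least 84.7-fold lower when 3 UMIs are taken as the most that a count of 0 allows. Tek was therefore the one gene of the 8 with no count left. Esam (ENSMUSG00000001946, chromosome 9, 37528078 to 37538319) was at 21.9, 33.3, 11.2 and 0.374 CPM in the control, Mll3-, Mll4- and Mll3/4-labelled libraries. Its 19 remaining UMIs put the Mll3/4-labelled library 58.7-fold below the control (log2 ratio -5.84, interval -6.61 to -5.23). Pdzk1ip1 (ENSMUSG00000028716, chromosome 4, 115088708 to 115093899) was at 51.9, 65.8, 28.6 and 0.65 CPM, and 79.9-fold lower in the last (log2 ratio -6.30, -6.86 to -5.83). All 3 surface genes had the same order of libraries, highest with the Mll3 label, then the control, then the Mll4 label, and lowest with both. When the gates described further on were weighted to their shares in the control, Pdzk1ip1 and Tek were below the control in the Mll3-labelled library (log2 ratios -0.25 and -0.10 in place of 0.34 and 0.34).

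The genes of intracellular signalling and adhesion parted. Fgd5 (ENSMUSG00000034037, chromosome 6, 91978878 to 92076004) was at 5.63 CPM in the control, and at 11.6, 2.57 and 0.197 under the labels Mll3, Mll4 and Mll3/4. The last is 10 UMIs, and 28.6-fold below the control (log2 ratio -4.77, -5.91 to -3.95). Ctnnal1 (ENSMUSG00000038816, chromosome 4, 56810935 to 56865188) was at 7.94, 14.4, 6.62 and 8.56 CPM. The Mll3/4-labelled library held 435 UMIs of it, at a log2 ratio of 0.11 (-0.06 to 0.28), an interval that includes 0.

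The 3 enzymes were all low in the Mll3/4-labelled library. Gcnt2 (ENSMUSG00000021360, chromosome 13, 40859754 to 40960892) was at 180, 193, 77.4 and 1.69 CPM in the control, Mll3-, Mll4- and Mll3/4-labelled libraries, 106-fold lower in the last. Its log2 ratios were 0.10 (0.07 to 0.13), -1.22 (-1.25 to -1.18) and -6.73 (-7.06 to -6.43). Tgm2 (ENSMUSG00000037820, chromosome 2, 158116402 to 158146436) was at 11.1, 20.4, 8.62 and 0.138, and Sult1a1 (ENSMUSG00000030711, chromosome 7, 126672865 to 126676432) at 5.04, 11.5, 3.22 and 0.138 CPM. Each of these was down to 7 UMIs in the Mll3/4-labelled library, 80.2-fold and 36.6-fold below the control. Sult1a1 also had the highest ratio of the 8 in the Mll3-labelled library (log2 ratio 1.19, 1.05 to 1.33), without reaching the expression minimum. The 3′ ends of Gcnt2, Tgm2 and Sult1a1 lie within genes of the other strand (A730081D07Rik, Rprd1b and Sgf29), and the strand setting of the counting is not given in the sources used here, so a share of their reads cannot be assigned with certainty.

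**Figure D1:**
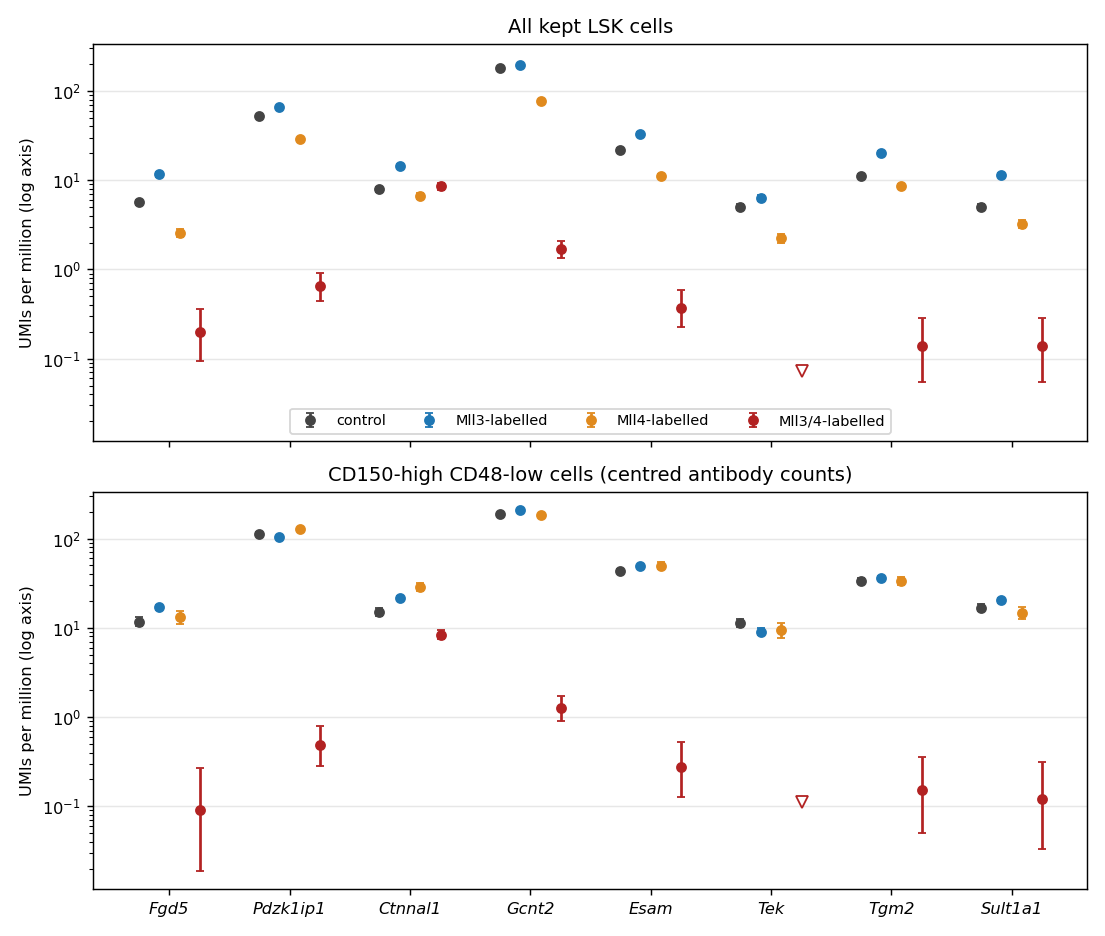
CPM of the 8 genes (log axis) in the 4 libraries, over all kept cells (top) and over CD150-high CD48-low cells (bottom); bars are 95% Poisson intervals for counting error and open triangles the upper limit where no UMI was found. All genes but Ctnnal1 lie far below the other libraries in the Mll3/4-labelled one in both panels, and Ctnnal1 lies close to the control over all cells (8.56 against 7.94 over all cells).

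The sum of the log2 ratios of the Mll3- and Mll4-labelled libraries was far from the ratio of the library with both labels. All 3 ratios share the control, so this is a description. The sum was -0.09 for Fgd5, -0.52 for Pdzk1ip1, -1.12 for Gcnt2, -0.37 for Esam, 0.52 for Tgm2 and 0.54 for Sult1a1. The Mll3/4-labelled library lay below that sum by 4.68, 5.78, 5.61, 5.46, 6.75 and 5.64 log2 units. For Ctnnal1 the sum was 0.60 and the library lay 0.49 below it. Of the 6 genes past the expression minimum, 5 lay at least 1 log2 unit below the sum, against 15.9% of all genes.

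Promoters of a gene that was kept and of genes that were lost were set side by side, since 7 genes moved together and 1 did not. RefSeq entries on GRCm38.p6 were found for 6 of the 8 genes. The 250 bases before the start are printed for Ctnnal1 (chr4:56865212-56865461, minus strand), the gene that was kept, and for Pdzk1ip1 (chr4:115088458-115088707, plus strand) and Tek (chr4:94739039-94739288, plus strand), which were lost. Capitals mark CpG dinucleotides.
Ctnnal1: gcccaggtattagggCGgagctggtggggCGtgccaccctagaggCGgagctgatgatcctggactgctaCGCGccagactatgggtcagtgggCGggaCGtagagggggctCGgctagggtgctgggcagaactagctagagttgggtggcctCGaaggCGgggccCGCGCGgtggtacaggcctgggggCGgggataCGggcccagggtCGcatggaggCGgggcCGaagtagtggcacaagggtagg
Pdzk1ip1: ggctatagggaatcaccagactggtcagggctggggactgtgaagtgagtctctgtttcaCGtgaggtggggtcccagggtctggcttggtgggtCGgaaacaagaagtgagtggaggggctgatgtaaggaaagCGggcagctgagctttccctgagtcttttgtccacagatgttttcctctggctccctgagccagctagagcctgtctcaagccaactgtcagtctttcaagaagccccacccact
Tek: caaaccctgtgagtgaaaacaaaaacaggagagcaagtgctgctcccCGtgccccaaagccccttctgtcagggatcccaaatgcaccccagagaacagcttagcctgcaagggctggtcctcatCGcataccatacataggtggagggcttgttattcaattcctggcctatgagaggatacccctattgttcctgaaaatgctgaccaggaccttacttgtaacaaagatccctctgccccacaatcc
Ctnnal1 had 18 CpG in this window, Pdzk1ip1 3 and Tek 2, where the median of 32851 promoters was 6. CpG content did not separate the kept gene from the lost ones, because Fgd5 had 31, more than Ctnnal1, while the 3 promoters of Gcnt2 had 5, 6 and 11 and that of Sult1a1 had 0. Short motifs were searched on both strands in the 8 windows of the 6 genes. The letters AGATAA, known from factors of the GATA family, were in none of them and in 9.99% of all promoters. The RUNX letters TGTGGT were also in none, and in 14% of all promoters. The same held for the ETS letters CGGAAG, which 13.6% of all promoters hold. This says only that these letters are not in these windows.

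Within CD150-high CD48-low cells the libraries with 1 label were nearer to the control for most genes, while 7 of the 8 genes remained nearly absent from the Mll3/4-labelled library and Ctnnal1 was lower there. This gate was drawn from the antibody counts alone, as a centred log ratio over the 6 antibodies with 1 threshold per antibody for all libraries. It took 2152 control cells (29.6%), 3215 of the Mll3-labelled library (52.7%), 480 of the Mll4-labelled (10%) and 3160 of the Mll3/4-labelled (66.6%). Of these 3160 cells, 3153 carried B-lineage genes. All 8 genes reached the expression minimum there. In the Mll3/4-labelled library 7 of 8 were at least 2-fold lower than in the control (14.6% of all genes) and none was higher (7.91%). None of the 8 was 2-fold lower or higher in the Mll3-labelled library (1.62% and 1.1% of all genes) or in the Mll4-labelled one (2.41% and 3.83%).

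The gate means different things in the 4 libraries. The median count of the CD150 antibody in gated cells was 132 in the control, and 326, 179 and 41 under the labels Mll3, Mll4 and Mll3/4. Without centring, only 92 cells (1.94%) of the Mll3/4-labelled library fell in the gate, while 1171 cells of the control, 2434 under the Mll3 label and 276 under the Mll4 label did. All 92 cells were in the centred gate too, and results for the Mll3/4-labelled library are given for both.

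Levels of the surface genes in gated cells were close in 3 libraries. Tek was at 11.3, 9.06, 9.37 and 0 CPM in the control and the libraries labelled Mll3, Mll4 and Mll3/4. Esam was at 43, 48.8, 49.9 and 0.275, and Pdzk1ip1 at 114, 105, 127 and 0.489. The log2 ratios of these 3 genes in the libraries with 1 label lay between -0.31 and 0.22. Tek was lower than the control in gated cells of the Mll3-labelled library (-0.31, -0.52 to -0.11), although over all cells of that library it was higher (0.34).

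Of the other genes, Fgd5 was at 11.7, 16.9, 13.1 and 0.0917 CPM in gated cells of the control, Mll3-, Mll4- and Mll3/4-labelled libraries. It thus remained above the control in the Mll3-labelled library (log2 ratio 0.52, 0.34 to 0.71). Gcnt2 was at 187, 208, 182 and 1.25, Tgm2 at 33.8, 36.3, 33.4 and 0.153, and Sult1a1 at 16.8, 20.3, 14.6 and 0.122. For these 3 enzymes the ratios of the libraries with 1 label lay between -0.20 and 0.27, so that the 2-fold lower Gcnt2 of the whole Mll4-labelled library was not seen inside the gate (-0.04, -0.12 to 0.03). In the 92 cells of the Mll3/4-labelled library gated by both scales there were 2 UMIs of Fgd5, 7 of Pdzk1ip1, 20 of Gcnt2, 5 of Esam, 1 of Tgm2 and none of Tek or Sult1a1. Gcnt2 was at 16.4 CPM there against 159 in the control's cells by both scales, and 7 of the 8 genes were again at least 2-fold lower (14.5% of all genes). By both scales the log2 ratio was -2.56 for Fgd5, -4.28 for Pdzk1ip1, -3.24 for Gcnt2, -3.25 for Esam and -5.06 for Tgm2. In the centred gate these ratios were -6.78, -7.81, -7.20, -7.21 and -7.65, so the size of the loss depended on the gate. Ctnnal1 had 13 UMIs in the 92 cells and a log2 ratio of -0.78 (-1.76 to -0.04). Of these 92 cells, 89 carried B-lineage genes.

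The size of the loss in the Mll3/4-labelled library depended on which cells were weighed. Over all cells with the antibody gates weighted to their shares in the control, the log2 ratio was -2.45 for Fgd5, -3.36 for Pdzk1ip1, -3.00 for Esam, -4.04 for Gcnt2, -3.22 for Tgm2 and -6.90 for Sult1a1, and 0.03 for Ctnnal1. The direction of these 6 lost genes was the same under all alternatives run. The weighted ratios have no interval and rest on few cells. The HSC gate, described further on, was weighted at 23.8% but held 84 cells of the Mll3/4-labelled library, and the MPP1 gate held 9. In these HSC cells there were 2 UMIs of Fgd5, 12 of Pdzk1ip1, 8 of Esam, 25 of Gcnt2, 4 of Tgm2 and 0 of Sult1a1.

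Ctnnal1 behaved apart in the gate as well. Gated cells of the control had 15 CPM of it, against 21.8, 28.9 and 8.38 CPM under the labels Mll3, Mll4 and Mll3/4. Both libraries with 1 label were above the control (log2 ratios 0.54, 0.38 to 0.70, and 0.95, 0.74 to 1.16), and the Mll3/4-labelled one was below it (-0.84, -1.06 to -0.62). With the gate drawn without centring the ratio of the Mll4-labelled library was 1.07, past 2-fold (4.02% of all genes), and with CD135-low added it was 1.11 (3.62% of all genes). Gated cells of the Mll4-labelled library also held more RNA of other cell types. The granule list stood at 1197 CPM there against 362 in the control, the mast cell list at 137 against 3.99, and 8 marrow stroma genes at 264 against 19.5, and the part of these in the value of Ctnnal1 was not tested.

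**Figure D2:**
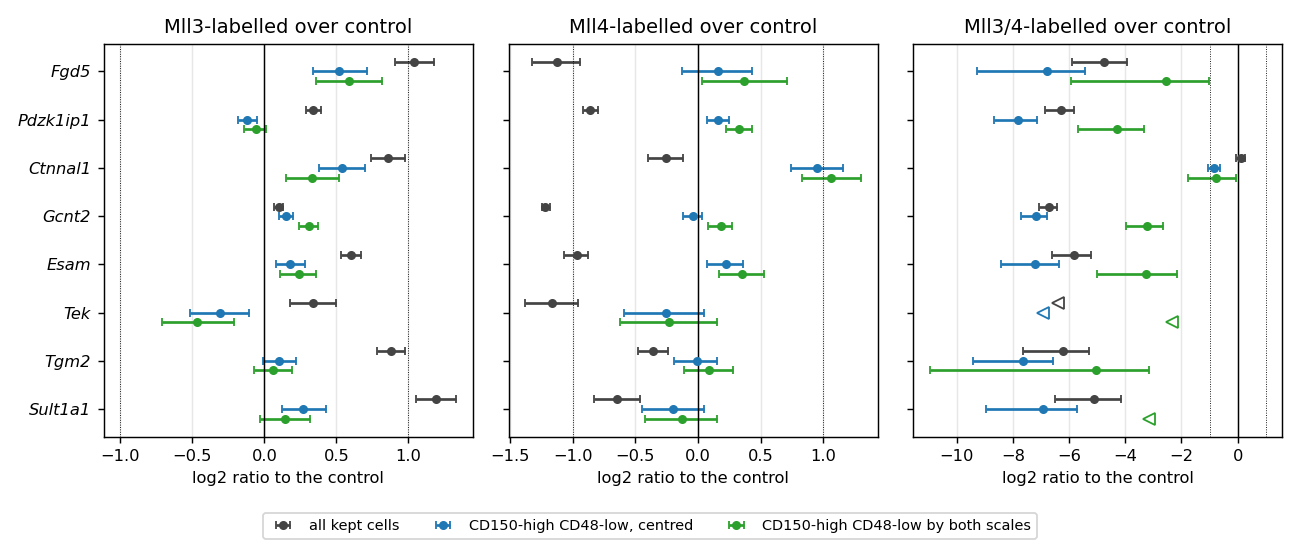
Log2 ratio to the control of each gene in the 3 other libraries, over all kept cells and over CD150-high CD48-low cells gated with centring or by both scales; bars are 95% intervals for counting error, open triangles are limits for genes without a UMI, and dotted lines mark 2-fold. In the libraries with 1 label the points of the gated cells lie nearer to 0 than those of all cells for most genes, and in the Mll3/4-labelled library 7 genes lie left of the 2-fold line in every set.

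For 6 of the 8 genes the lower level over all cells of the Mll4-labelled library was seen outside the gate, while inside it their ratios were -0.26 or higher. Outside, Gcnt2 was at 65.8 CPM against 178 in the control (log2 ratio -1.44, -1.48 to -1.40), Esam at 6.82 against 15.2 (-1.16) and Pdzk1ip1 at 17.6 against 32.4 (-0.88). Of the 4 genes past the expression minimum outside the gate, Gcnt2 and Esam were at least 2-fold lower, against 5.15% of all genes, and none was higher (7.04%). Fgd5, Tek and Ctnnal1 had ratios of -1.40, -1.08 and -0.47 there. Tgm2 and Sult1a1 went the other way, at 5.83 against 3.82 CPM (0.61, 0.42 to 0.80) and 1.94 against 1.31 (0.56, 0.23 to 0.90). Over all cells they were nevertheless lower (-0.36 and -0.65), in a library with 10% of its cells in the gate against 29.6% in the control. Tgm2 was at 17.3 CPM in the 575 cells of this library with macrophage genes and at 3.26 in its 638 cells with mast cell genes. Pdzk1ip1 had the reverse order in these cells, 16.4 and 50.4.

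Leaving out of every library the cells with granule, macrophage, mast, innate lymphoid or T, or plasma cell genes moved the ratios of the Mll4-labelled library upward, past 0 for 5 of the 8 genes. It kept 1329 of its 4793 cells and 6999 of 7274 in the control. The log2 ratio then was 0.12 for Pdzk1ip1, 0.13 for Esam, -0.05 for Fgd5, -0.17 for Gcnt2, -0.30 for Tek and 0.20 for Sult1a1, each nearer to 0 than over all cells. It was 0.64 for Ctnnal1 and 0.46 for Tgm2, farther from 0 than the -0.26 and -0.36 over all cells. No gene was 2-fold lower. With the 6 antibody gates weighted to their shares in the control, again none was 2-fold lower. In the Mll3-labelled library, the same weighting brought Tgm2 from 0.88 to 0.05, Sult1a1 from 1.19 to 0.35 and Fgd5 from 1.04 to 0.55. The share of cells in the CD150-high CD48-low gate, 52.7% against 29.6% in the control, moved with the higher levels in that library, and no other measure of its part in them was made.

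In the control, 7 of the 8 genes followed the stem-cell gate and Gcnt2 did not. CD150-high CD48-low cells had at least 2-fold more of the 7 than the other cells, against 1.95% of all genes. The excess was largest for Sult1a1, at 16.8 against 1.31 CPM (12.7-fold), and Tgm2, at 33.8 against 3.82 (8.84-fold). It was 3.73-fold for Tek, 3.51-fold for Pdzk1ip1, 3.18-fold for Fgd5, 2.82-fold for Esam and 2.63-fold for Ctnnal1. Gcnt2 was at 187 and 178 CPM, 1.05-fold. The gated cells were 29.6% of the control but held 80.2% of its Sult1a1 and 73.8% of its Tgm2 UMIs. The same 7 genes were at least 2-fold higher in the gate in the Mll3-labelled library (2.68% of all genes). In the Mll4-labelled library all 5 that reached the minimum were, Gcnt2 included at 2.76-fold (4.58% of all genes). For these counts within 1 library the minimum was 5 CPM over all its own cells. Tek and Sult1a1 were barely past it in the control, and with Fgd5 they were below it in the Mll4-labelled library.

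Gates named by the usual surface scheme separated the genes further. Among CD135- cells, HSC (stem cells) were CD150+CD48-, and the multipotent progenitor gates were CD150-CD48- (MPP1), CD150+CD48+ (MPP2) and CD150-CD48+ (MPP3), while MPP4 were CD150-CD135+. In the control, Sult1a1 was at 17.8 CPM in HSC (interval 16.1 to 19.6), 11.9 in CD150+CD135+ cells, 3.8 in MPP1, 3.1 in MPP2, 1 in MPP4 and 0.664 in MPP3. Its intervals did not overlap between HSC and CD150+CD135+, and did between MPP1 and MPP2 and between MPP4 and MPP3. Tgm2 was at 33.8, 32.2, 7.14, 12.9, 1.58 and 2.52 in the same order of gates, so that MPP2 stood above MPP1. Gcnt2 was highest in MPP1, at 267 CPM (255 to 280) in the control and 289 (277 to 302) in the Mll3-labelled library, against 188 and 214 in HSC. Ctnnal1 and Tek were highest in CD150+CD135+ cells of the control, at 20.5 (17 to 24.5) and 12.4 (9.7 to 15.6), and in HSC at 13.4 (12 to 15) and 10.8 (9.51 to 12.2), where the intervals of Tek overlap. Esam was within 40.5 to 43.1 in these 2 gates and at 8.67 in MPP4.

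The gates also show where the Mll4-labelled library differed. In MPP3 cells its Gcnt2 was at 50.4 CPM against 173 in the control, and in MPP4 cells at 71.6 against 183, while in HSC it was at 190 against 188. In MPP4 cells Tgm2 was at 10.4 against 1.58. The gates keep cells with genes of other cell types. Gcnt2 was at 37.5 CPM in the 1548 granule-gene cells of this library and at 47.7 in the 162 of the control. Tgm2 was at 17.3 in its 575 cells with macrophage genes. The part of such cells in these gates of the Mll4-labelled library was not tested. In HSC, Ctnnal1 was at 29 (25.6 to 32.7) against 13.4 in the control and 21 in the Mll3-labelled library. The Mll3/4-labelled library had only 84 HSC and 9 MPP1 cells. In the 84 HSC cells the losses were smaller than in the CD150-high CD48-low gate, with Gcnt2 at 28.8 CPM (6.54-fold lower, 25 UMIs), Pdzk1ip1 at 13.8 (8.28-fold, 12 UMIs), Esam at 9.21 (4.68-fold, 8 UMIs), Tgm2 at 4.6 (7.34-fold, 4 UMIs) and Fgd5 at 2.3 (5.36-fold, 2 UMIs; log2 ratio -2.10, -5.48 to -0.56). Tek and Sult1a1 had no UMI there, at least 3.13-fold and 5.16-fold lower. Only 11.9% of these 84 cells had a UMI of any of the 8 genes, against 99.2% of HSC in the control (cells with at least 3000 UMIs). These shares were taken at unlike depth, with median UMIs of 7380 and 11790 per cell in the 2 gates. With each cell thinned to 3000 UMIs they were 2.38% and 72.8%. At most 7 of the 84 HSC cells of the Mll3/4-labelled library lacked B-lineage genes, and the part of those cells in these UMIs was not counted. In the other gates of this library Ctnnal1 was at 9.62 in MPP2, 8.31 in MPP3, 8.54 in MPP4 and 8.55 in CD150+CD135+ cells, with overlapping intervals. Gcnt2 was at 8.93 in its MPP2 and 10.2 in its MPP3 cells, against 138 and 173 in the control, and at 1.22 in MPP4 and 0.509 in CD150+CD135+ cells.

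**Figure D3:**
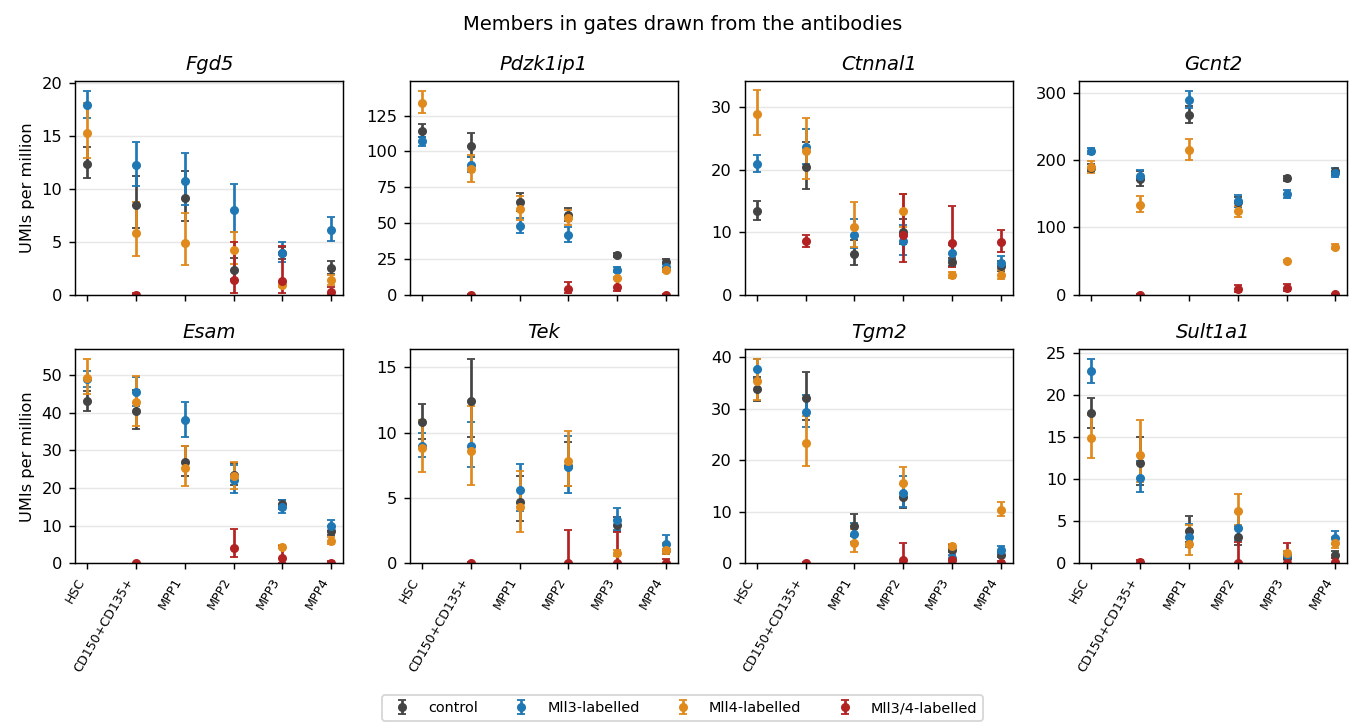
CPM of each gene in 6 gates drawn from the antibodies, one panel per gene with its own scale; points are libraries, bars 95% Poisson intervals, and gates with under 100 cells are not shown. Sult1a1 and Tgm2 are concentrated in HSC and CD150+CD135+ cells, Gcnt2 is highest in MPP1, and Ctnnal1 lies between 8.31 and 9.62 in the 4 gates shown of the Mll3/4-labelled library.

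Finer steps of single antibodies told the same of the control. When cells were ranked into 5 equal groups by the CD48 antibody, Sult1a1 was at 21.4, 6.66, 2.11, 0.482 and 0.785 CPM from the lowest to the highest group, and Tgm2 at 38.6, 16.7, 6.88, 3.34 and 1.37. Gcnt2 had its highest value in the middle group, with 202, 214, 216, 174 and 123. By CD201, the protein of Procr, Sult1a1 was at 0.378, 1.01, 2.26, 6.55 and 22.1, and Gcnt2 at 136, 161, 182, 214 and 250, both higher at every step. Ctnnal1 showed no such order by CD201, with 6.83, 9.03, 7.17, 6.65 and 10.9, although it was higher at every step of CD150 (4.6, 4.82, 5.81, 8.35 and 17.9).

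In the control, cells with transcripts of cell division held less of most of the genes. In the Mll3/4-labelled library the few UMIs left of several of them were denser in such cells. In control cells classed as dividing (2580 of 7274, at least 2 UMIs of at least 3 division genes), Sult1a1 was at 1.04 CPM against 9.06 in the others (log2 ratio -3.12). Fgd5 (3.18 against 8.09), Pdzk1ip1 (29.8 against 74.2) and Tgm2 (6.46 against 15.7) were also more than 2-fold lower. Tek was at 4.87 against 5.13 and Ctnnal1 at 8.52 against 7.35. Inside the CD150-high CD48-low gate of the control, Sult1a1 was at 4.23 in dividing cells and 22 in the others, while Ctnnal1 was higher in dividing cells, 20.7 against 12.6 (0.72). In the Mll3/4-labelled library Ctnnal1 was at 13.7 in 1004 dividing cells and 5.83 in the others (1.23, with a lower limit of 0.95). The few UMIs of Fgd5 (0.509 against 0.0302 CPM), Pdzk1ip1 (1.02 against 0.453), Gcnt2 (2.94 against 1.03), Esam (0.679 against 0.211) and Tgm2 (0.396 against 0) were also denser in its dividing cells. Sult1a1 went the other way there, with 1 UMI in dividing cells and 6 in the others (0.0565 against 0.181 CPM). The class needs several UMIs and therefore takes deeper cells. Of the 162 UMIs of the 7 lost genes in the Mll3/4-labelled library, 115 lay in 24 cells with a median of 26190 UMIs, described further on. The part of these cells in the values for dividing cells was not tested.

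How many of the genes a cell carried was counted after each cell was thinned to 3000 UMIs, which left out few cells and made the libraries comparable. Control cells then had a mean of 0.77 of the 8 genes, Mll3-labelled cells 0.93, Mll4-labelled cells 0.375 and Mll3/4-labelled cells 0.0271. Without thinning these means were 2.08, 2.55, 1.27 and 0.0961. At least 3 of the 8 were found in 3.14%, 6.21% and 1.33% of cells in the first 3 libraries, and in 0 of 4715 Mll3/4-labelled cells. Inside the CD150-high CD48-low gate the first 3 libraries were close, with means of 1.13, 1.21 and 1.11, and the Mll3/4-labelled library had 0.0267.

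**Figure D4:**
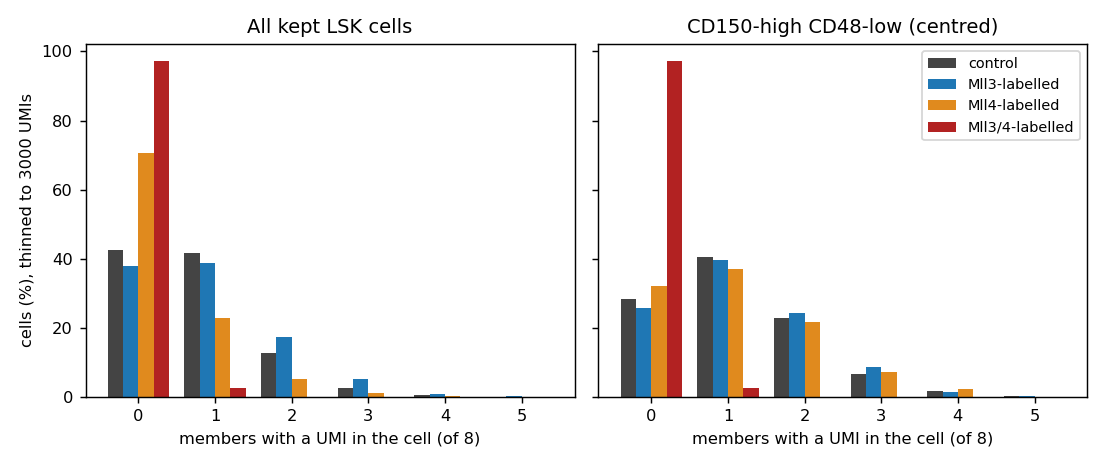
Share of cells (percent) by the number of the 8 genes with at least 1 UMI, each cell thinned to 3000 UMIs, over all kept cells (left) and CD150-high CD48-low cells (right). In the right panel the control, Mll3- and Mll4-labelled libraries have similar bars, and nearly all Mll3/4-labelled cells have none of the genes (2.67% have at least 1).

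The share of cells with a UMI of a gene was set beside that in cells with granule or B-lineage genes, since free RNA gives counts to any droplet. Whether those cells express the genes themselves is not known, as control granule-gene cells held a median of 20 UMIs of the stem-cell list. At 3000 UMIs per cell, Gcnt2 had a UMI in 41.8% of control cells, and in 43.3%, 18.4% and 0.148% of cells under the labels Mll3, Mll4 and Mll3/4. In the 161 control cells with granule genes (median 25391 UMIs before thinning) it was 12.4%, and in the 48 with B-lineage genes 6.25%. Pdzk1ip1 was at 17%, 20%, 8.69% and 0.148%, against 4.97% in those granule-gene cells. Esam was at 6.78%, 10.2%, 2.68% and 0.0848%, against 1.86%. For Fgd5, Tek and Tgm2 no cell of the 4715 had a UMI in the thinned Mll3/4-labelled library, which allows a share of up to 0.0636% with a UMI at this depth, while the control had 1.82%, 1.52% and 3.58%. Ctnnal1 was found in 2.25% of Mll3/4-labelled and 2.37% of control cells, with overlapping intervals (1.84% to 2.71% and 2.03% to 2.75%). Intervals and limits cover counting error only. The medians of the unthinned depth are those given above, and without thinning Fgd5 had a UMI in 0.168%, Tgm2 in 0.105% and Tek in 0% of Mll3/4-labelled cells. Gcnt2 without thinning had a UMI in 87.4%, 83.7%, 44.3% and 0.885% of cells.

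The UMIs of the 7 lost genes that remained in the Mll3/4-labelled library were not spread evenly over its cells. Of 162 such UMIs, 115 (71%) lay in the 24 cells that did not meet the B-lineage rule, and 20 of these 24 cells had at least 1. In these cells the 7 genes summed to 183 CPM, and in the 4724 cells with B-lineage genes to 0.937. By gene, the 24 cells held 18 of 19 UMIs of Esam, 6 of 7 of Tgm2, 26 of 33 of Pdzk1ip1, 59 of 86 of Gcnt2 and 6 of 10 of Fgd5, but none of the 7 of Sult1a1. Ctnnal1 was the reverse, with 6 of its 435 UMIs in the 24 cells (9.56 CPM) and the others in B-lineage-gene cells (8.55).

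The 24 cells were deep, with a median of 26190 UMIs against 8906 in the rest. The transcription factor genes Hlf and Mecom stood at 164 and 65.3 CPM in them, and at 0.179 and 0.199 in the other cells. The 24 genes of a wider stem-cell list summed to 1955 against 652. Not all of that list were higher in the 24 cells. Ly6a, Cd81 and Mllt3 were lower in them, at 79.7, 89.2 and 28.7 CPM against 257, 146 and 64.4. Ndn (0 against 4.07) and Cdkn1c (14.3 against 15.4) were also lower, with overlapping intervals. Granule genes were also high in them, at 2154 CPM against 2.93, and the median count of the CD48 antibody was 2674 against 102. Kmt2c was at 27.1 (15.8 to 43.4) in them against 42.5 in the other cells, and Kmt2d at 9.56 (3.51 to 20.8) against 25.6. These values rest on 17 and 6 UMIs in the 24 cells. Their intervals do not reach the 68.9 and 24.6 of all control cells, and whether the 24 cells carry the deletion was not tested. Cells that share a barcode with another library numbered 28 and held none of the 162 UMIs. This group of 24 cells was set apart after the values had been seen.

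**Figure D5:**
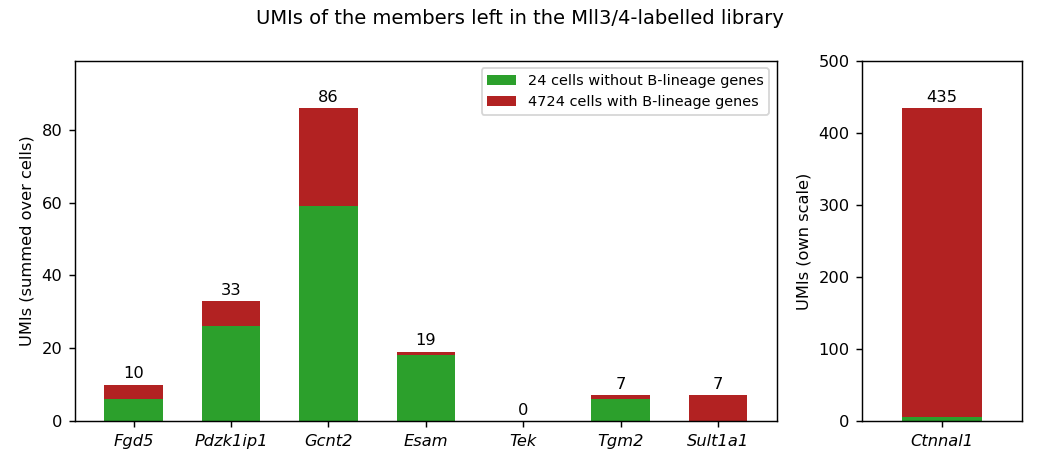
UMIs of each gene summed over the Mll3/4-labelled library, split into 24 cells without and 4724 cells with B-lineage genes; Ctnnal1 has its own scale. Most remaining UMIs of Gcnt2, Pdzk1ip1, Esam and Tgm2 lie in the 24 cells, whereas nearly all of the 435 UMIs of Ctnnal1 lie in the others.

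B-lineage-gene cells of the other libraries give a reference for Ctnnal1 in the Mll3/4-labelled library. It was at 1.72 CPM in 48 such control cells, 4.03 in 244 Mll3-labelled and 2.49 in 140 Mll4-labelled cells, against 8.55 in the Mll3/4-labelled library. The control value rests on 2 UMIs and the others on 25 and 11. Gcnt2, by contrast, was at 15.5, 23.4 and 20.2 in those cells and at 0.538 in the Mll3/4-labelled library. For each gene the intervals of the control, Mll3- and Mll4-labelled cells overlapped, and that of the Mll3/4-labelled cells lay outside them. The cells were not alike in other ways. They held a median of 28, 153.5, 24 and 136 UMIs of the B-lineage list in the control, Mll3-, Mll4- and Mll3/4-labelled libraries. Medians of the stem-cell list were 17.5, 14, 22 and 6.

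Most genes of a wider list of 24 other stem-cell genes were also low in the Mll3/4-labelled library. In the Mll3/4-labelled library 19 of the 24 reached the expression minimum, of which 15 were at least 2-fold lower and 1 higher (13.7% and 8% of all genes), with a median log2 ratio of -4.88 against -0.12 over all genes. Cdkn1c (-0.22), Cd81 (-0.35) and Mllt3 (0.25) were within 2-fold. Trpc6, a calcium channel gene, and Procr, which encodes CD201, had the lowest ratios (-8.08 and -7.77). Ly6a, the gene of Sca1, was the one above 2-fold, at 255 CPM against 93.4 (1.45), and Mllt3 had the next highest ratio. In the Mll4-labelled library 9 of 19 were at least 2-fold lower (4.74% of all genes) and none higher (median -0.97, against -0.11), and in the Mll3-labelled library 2 were higher (1.85%) and none lower (median 0.36, against 0.10). Inside the CD150-high CD48-low gate the medians were -5.54 with both labels, -0.03 with Mll4 and 0.02 with Mll3, over 23 genes.

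Close relatives of the 8 genes had mixed values. Of 23 family members 8 reached the minimum, and in the Mll3/4-labelled library 5 of these were at least 2-fold lower and 1 higher, against 13.7% and 8% of all genes (median -1.45, against -0.12). Tie1, the other receptor of the Tek family, was at 22 CPM in the control and 0.0788 in the Mll3/4-labelled library (-7.96). Among the relatives of Fgd5 past the minimum, Fgd2 was at -5.27 and Fgd3 at -1.34, while Fgd4 (-0.12) and Fgd1 (0.10) stayed within 0.12 of the control. Ctnna1, the alpha-catenin gene related to Ctnnal1, was at 84.5 against 40.7 CPM (1.05). F11r, a junction adhesion molecule related to Esam, was at -2.74, and Gcnt1 at -1.55. Relatives below the minimum, which these counts leave out, went both ways. Fgd6 was at 14.2 CPM in the Mll3/4-labelled library against 0.486 in the control (4.86). Jam2, related to Esam, was at 9.84 against 2.31 (2.09), and Tgm1 at 0.0197 against 2.2 (-6.22).

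Tek, Esam and Tie1 are also endothelial genes, and defining endothelial markers were low over all cells but higher in gated cells of the Mll4-labelled library. Of a list of 10 endothelial genes all 10 had a UMI in the control, where they summed to 261 CPM. Egfl7, Pecam1, Emcn and Tie1, genes that blood stem cells also express, made up most of it (174, 37.7, 25.2 and 22). Cdh5, Kdr, Cldn5, Plvap, Flt1 and Ptprb were each at 0.101 to 0.821 in the control and at 0.696 to 2.18 in the Mll4-labelled library. In CD150-high CD48-low cells of the Mll4-labelled library Cldn5 was at 10.8 CPM, Kdr at 8.95, Plvap at 5.83, Cdh5 at 4.6, Ptprb at 3.12 and Flt1 at 2.79, against 0.174 to 2.12 in the control's gated cells. The whole list summed to 190 CPM there against 226 in the control's gated cells, and its part in the levels of Tek and Esam was not tested. The summed list was 252, 125 and 36.6 in the Mll3-, Mll4- and Mll3/4-labelled libraries, with Cldn5 and Ptprb at 0 in the last.

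The 5 genes whose pattern over libraries and gates was most like the mean profile of the 8 were Mycn, Mansc1, Aldh1a1, P3h3 and Trim47. Likeness was the Pearson correlation of log2(CPM + 1) over 22 sums of a library and a gate, among 9580 candidate genes, and was 0.979, 0.975, 0.972, 0.969 and 0.968. The points share libraries and depth, and 4 of them come from the Mll3/4-labelled library, so these are descriptions. Mycn was at 28.1, 68.9, 15.3 and 0.925 CPM in the control, Mll3-, Mll4- and Mll3/4-labelled libraries. Within the 8, over the 18 points without the Mll3/4-labelled library, Pdzk1ip1 and Esam had a correlation of 0.946 and Tgm2 and Sult1a1 0.933, while Gcnt2 and Tgm2 had 0.0977.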

How the data were processed

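Raw UMI counts per cell barcode, with antibody counts beside them, were deposited by the authors. Per the labels' protocols the libraries used 10x Genomics Chromium 3′ chemistry, version 3.1, and per the submitters' processing notes Cell Ranger 6.1.1 and mm10. The strand setting and the barcode filter are not given in the sources used here. Gene coordinates are from GENCODE (GRCm38), in which 32158 of 32285 gene identifiers were found. Promoters are from RefSeq.

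The 8 genes and all lists were chosen with earlier results of these data known. All 8 were named, with the 2 lowest and 2 highest of each list, any relative past the minimum, and the 5 closest patterns. Hlf, Mecom and Ndn were named after their values were seen, as were the endothelial genes and the relatives below the minimum.

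UMIs were summed over kept cells and scaled to CPM (counts-per-million). Ratios took 0.5 UMIs added to each sum. Intervals were exact Poisson, Clopper-Pearson, and conditional for ratios. Gates used the crossing of a 2-component Gaussian mixture. Dividing and other classes needed 2 UMIs of 3 list genes. Doublets stayed in: Scrublet's own threshold (scanpy 1.11.5) called 3, 3, 171 and 1, too few to have worked in 3 libraries, and removing its top 423, 298, 184 and 180 scores was an alternative. Scaling alternatives used edgeR 4.0.16. The sums, intervals and gates were tested on simulated data.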

Additional observations from a re-analysis of the deposited data

Results flagged for a closer look

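Where both counting intervals leave out 0, 4 log2 ratios had opposite signs in CD150-high CD48-low cells and in the other cells of the same library. The differences were not tested because there is 1 library per genotype. In the Mll4-labelled library Pdzk1ip1 had a log2 ratio to the control of 0.16 in the gate and -0.88 outside it. Esam was at 0.22 in the gate and -1.16 outside, and Ctnnal1 at 0.95 and -0.47. In the Mll3/4-labelled library Ctnnal1 was at -0.84 in the gate and 0.65 outside it. Another 4 ratios changed sign with 1 of the intervals including 0: in the Mll4-labelled library Fgd5 (0.16 and -1.40), Sult1a1 (-0.20 and 0.56) and Tgm2 (-0.01 and 0.61), and in the Mll3-labelled library Tek (-0.31 and 0.21). Granule genes summed to 1197 CPM in gated and 7631 CPM in all cells of the Mll4-labelled library, and B-lineage genes to 13962 and 13565 CPM in the Mll3/4-labelled one. Their part in these values was not tested.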

How the results depend on the processing

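Of the Mll3/4-labelled library, the count of genes at least 2-fold lower was 5 of 6 over all cells and 7 of 8 in the gate. It moved by more than 1.5 times only with a minimum of 20 CPM, where it was 2 of 2 and 4 of 4, all the genes tested. The log2 ratios with gates weighted to control shares are given with the results.

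The counts of the other 2 libraries rest on genes near 2-fold. In the Mll4-labelled library 2 genes were lower over all cells. That count was 0 with the stricter cell filter, with gates weighted to control shares, with 5 or with 4 lists of other cell types left out (the latter added after seeing the data) and at 3-fold, 1 with the highest doublet scores removed and at 20 CPM, and 4 at 1.5-fold. In the Mll3-labelled library 1 gene was higher. That count was 0 with TMM or median-of-ratios scaling, totals without mitochondrial and ribosomal protein genes, equal weight per cell, the stricter filter, doublet scores removed, weighted gates, 20 CPM and 3-fold, 2 with the looser filter, with 5 or 4 lists left out and with no minimum, and 4 at 1.5-fold. In the gate, the Mll4-labelled library had 0 genes higher, and 1 without centring, with 1 threshold per library, with CD135-low added, by both scales and with the looser filter.

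Over all settings, 333 single log2 ratios stayed within the counting interval and 121 moved beyond it, and none that was past 2-fold changed sign. Tek gave no value in the Mll3/4-labelled library with equal weight per cell or weighted gates. Shares of cells moved with depth in 56 of 64 values. Median-of-ratios scaling shifted the ratios of the Mll3/4-labelled library by 0.11 over all cells, and TMM by 0.16 in the gate. No paired analysis was possible because each genotype has 1 library. One library per genotype leaves differences between animals, sorts and runs unmeasured.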
